A study of Homo sapiens with 10 samples.

Results

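The genes of polyamine metabolism were examined in prostate cancer cells cultured without arginine. The set was named by symbol and holds 10 genes: ODC1, AMD1, SRM and SMS of the synthesis route, OAZ1, OAZ2 and AZIN1, which control ornithine decarboxylase, and SAT1, SMOX and PAOX of the breakdown route. A probe set under its symbol was found for 9 of these 10 genes, among 17687 genes with a value in all. ODC1 had none under its symbol in the annotation used here and therefore has no value below. Each of the other 9 genes was read by 1 probe set.

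Polyamines are small positively charged molecules that bind RNA and DNA and are needed for protein synthesis and growth. Arginase turns arginine into ornithine, ornithine decarboxylase (ODC1) turns ornithine into putrescine, and spermidine synthase and spermine synthase extend putrescine to spermidine and spermine with aminopropyl groups taken from decarboxylated S-adenosylmethionine. The pool is kept in bounds by antizymes, which send ornithine decarboxylase to the proteasome, and by acetylation and oxidation, which return spermine and spermidine towards putrescine. The prostate is known for its high polyamine content.

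RNA was measured on 10 Clariom S human arrays, 4 of PC3 cells and 6 of CWR22Rv1 cells, both established lines of castration-resistant prostate cancer. PC3 cells were kept for 48 h in arginine-free medium (2 arrays) or in control medium (2 arrays). In a CWR22Rv1 time course, 1 array each stood for 0 h, 24 h and 48 h without arginine, and the 0 h culture had spent 24 h in control medium, so that the 48 h array differed from it in time in medium as well. In a separate CWR22Rv1 experiment, cells were kept for 48 h in arginine-free medium with dimethyl alpha-ketoglutarate (DMKG), in arginine-free medium, or in control medium, with 1 array each. DMKG, a form of alpha-ketoglutarate that crosses membranes, was at 5 mM per the labels, while the methods give the same figure in micromolar, so that the dose used is not settled here. All media were RPMI with dialyzed serum, and control medium differed by added arginine at 200 mg/L. Nothing in the labels says that the PC3 replicates were separate cultures, so that p-values measure the spread between these arrays, which may be technical.

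Values are log2 signals as deposited, and a difference of 1 on this scale is a 2-fold change. Negative control probe sets of an array had medians of 3.30 to 4.04, and 95th percentiles of 6.78 to 8.75. Above that 95th percentile lay 7 of the 9 genes on all 10 arrays. SMOX lay above it on 4 of 4 PC3 arrays and on 0 of 6 CWR22Rv1 arrays, and PAOX on 0 of 10 arrays, so their values there cannot be told from background. The epithelial markers KRT8, KRT18 and EPCAM were above it on all 10 arrays. FOLH1 and CDH1 were above it on 0 of 4 PC3 arrays and on 6 of 6 CWR22Rv1 arrays. Of the other luminal prostate markers, HOXB13 was above it on all 10 arrays, and KLK2, KLK3 and TMPRSS2 on 1 array each, the control array of the DMKG experiment, where they read 9.08, 7.83 and 8.86. HOXB13 read 9.27 and 8.90 in starved PC3 cells, against 12.06 and 11.82 in control medium. In CWR22Rv1 cells HOXB13 read 10.16, 9.49 and 9.04 over the time course, and 9.18 with DMKG, 9.27 in starved cells and 11.44 in control medium. HOXB13 was thus lower on every starved array than in its control, which did not hold for all markers. On starved CWR22Rv1 arrays EPCAM and CDH1 were lower than in their control, and KRT18 was higher. KRT18 read 13.61, 14.24 and 14.42 over the time course, and 13.27 with DMKG, 13.09 in starved cells and 12.10 in control medium. FOLH1 read 11.01, 11.30 and 10.68, and 12.42, 12.85 and 13.33, in the same order. The part of these markers in the results below was not tested. All 5 measured markers of other cell types were above it on 0 of 10 arrays. In the DMKG experiment 21.6% to 26.3% of all genes had exactly equal values on a pair of its 3 arrays, while any pair of arrays of the time course or of PC3 cells shared such values for at most 22 genes. The equal values touched OAZ2 and SMOX, as given with these genes. In RNA from whole cultures, a change in the RNA of every cell and a change in the mix of cell states cannot be told apart.

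After 48 h without arginine, SAT1 was the polyamine gene with the largest change in both lines. In PC3 cells SAT1 and AZIN1 rose, and OAZ2 and SMS fell. In CWR22Rv1 cells SAT1 rose and SRM fell. A gene is named as risen or fallen where limma gave an adjusted p under 0.05 (Benjamini-Hochberg, 17687 genes). The SE of a gene is the same in both lines, since the fit pools the spread of the PC3 replicates with that between the CWR22Rv1 experiments. The p-values of CWR22Rv1 cells therefore rest in part on PC3 arrays. With CWR22Rv1 cells fitted on their own, no gene was called. In PC3 cells 2 of the 9 genes rose, where 9.59% of all genes did, and 2 of 9 fell, where 10.0% of all genes did. In CWR22Rv1 cells 1 of 9 rose, where 3.20% of all genes did, and 1 of 9 fell, where 3.74% of all genes did. The median difference of the 9 genes was -0.15 in PC3 cells, against 0.02 over all genes, and -0.01 in CWR22Rv1 cells, against 0.02 over all genes. With 9 genes each median is the value of 1 gene, PAOX in PC3 cells and SMOX in CWR22Rv1 cells. Neither can be told from background in that line, so these medians do not sum up the route.

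**Figure D1:**
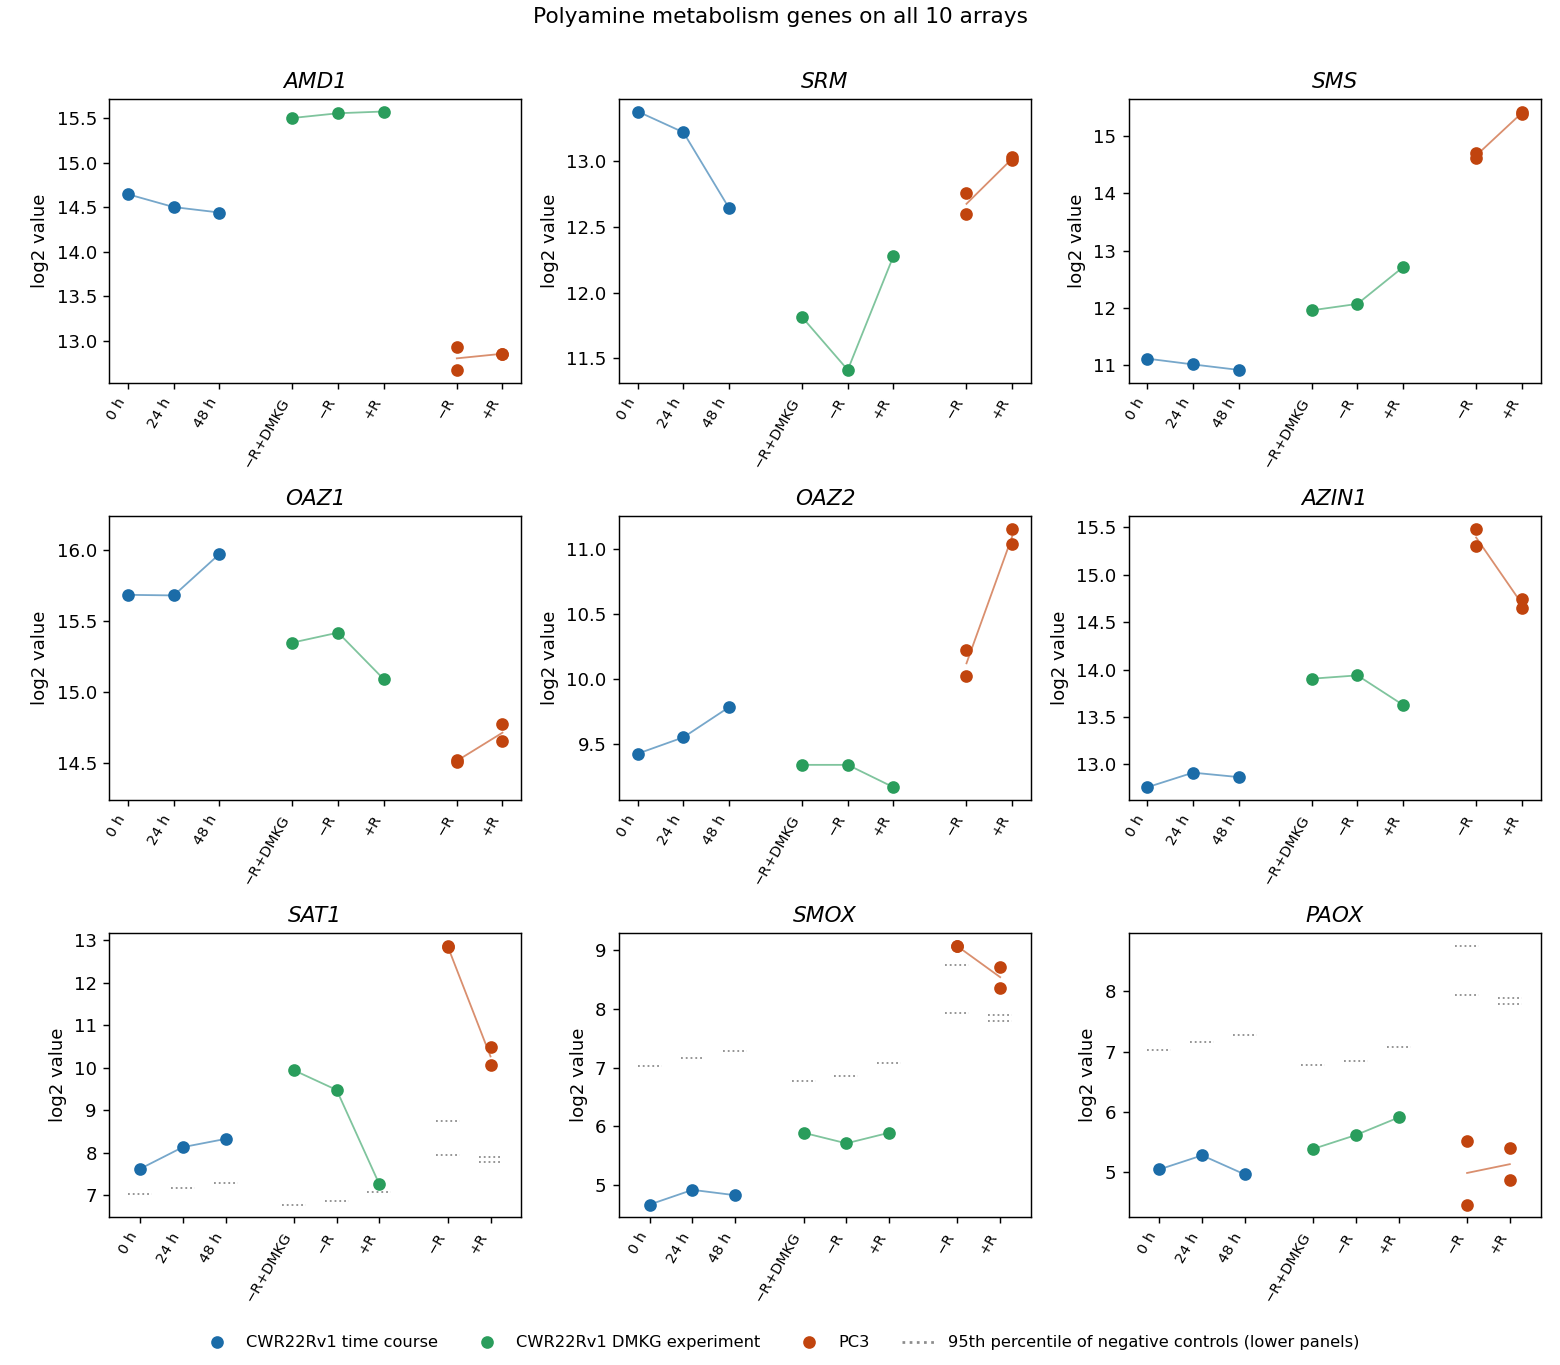
Log2 value of the 9 measured polyamine genes on each array (points), with lines joining the means within the CWR22Rv1 time course (0 h, 24 h and 48 h without arginine), the CWR22Rv1 DMKG experiment (-R+DMKG, arginine-free medium with DMKG; -R, arginine-free medium; +R, control medium) and PC3 cells. Dotted lines in the SAT1, SMOX and PAOX panels mark the 95th percentile of the negative controls of each array, above which SMOX lies only on PC3 arrays and PAOX on none.

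The sequences before the start of 4 of the 5 called genes are shown because these genes moved in different directions. SAT1 rose in both lines, SRM fell in CWR22Rv1 cells, and SMS and OAZ2 fell in PC3 cells. OAZ2 also passed the test of the difference between the lines, a call lost with any 1 of 8 arrays left out, as given below. Each is the stretch of 250 bases ending at the base before the RefSeq start (GRCh38.p14), on the strand of the gene: chrX:23782923-23783172 (+) for SAT1, chr1:11060019-11060268 (-) for SRM, chrX:21940459-21940708 (+) for SMS and chr15:64703282-64703531 (-) for OAZ2. Capitals mark matches, on either strand, to any of 7 motifs: CACGTG (E-box of MYC and MAX), TGACTCA (AP-1), TGACNNNGC (core of the antioxidant response element), TATGACTAA (polyamine-responsive element), TGATGNAA (composite element of ATF4), GGGCGG (GC box) and CCAAT. No matches to different motifs overlapped in these 4 sequences.
SAT1: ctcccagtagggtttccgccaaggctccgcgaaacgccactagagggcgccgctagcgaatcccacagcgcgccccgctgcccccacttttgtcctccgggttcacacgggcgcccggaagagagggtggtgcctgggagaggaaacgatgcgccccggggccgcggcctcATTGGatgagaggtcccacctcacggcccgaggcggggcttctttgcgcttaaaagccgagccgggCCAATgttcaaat
SRM: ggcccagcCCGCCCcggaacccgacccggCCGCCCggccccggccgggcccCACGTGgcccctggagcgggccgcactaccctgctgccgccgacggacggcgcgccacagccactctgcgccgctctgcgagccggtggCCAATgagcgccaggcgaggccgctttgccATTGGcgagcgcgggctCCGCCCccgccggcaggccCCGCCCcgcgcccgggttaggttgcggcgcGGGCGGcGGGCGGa
SMS: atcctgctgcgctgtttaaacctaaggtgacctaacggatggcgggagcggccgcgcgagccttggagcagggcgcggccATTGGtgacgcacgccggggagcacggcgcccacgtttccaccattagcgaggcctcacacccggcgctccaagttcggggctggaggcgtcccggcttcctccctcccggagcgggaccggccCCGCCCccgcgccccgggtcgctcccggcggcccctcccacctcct
OAZ2: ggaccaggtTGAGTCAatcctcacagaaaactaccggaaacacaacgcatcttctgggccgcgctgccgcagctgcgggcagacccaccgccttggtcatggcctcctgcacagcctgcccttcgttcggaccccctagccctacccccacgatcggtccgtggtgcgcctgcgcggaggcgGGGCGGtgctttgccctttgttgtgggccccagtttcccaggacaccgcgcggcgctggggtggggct

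Among 35116 such windows of RefSeq genes, 6.35% held CACGTG, 4.20% TGACTCA, 10.9% TGACNNNGC, 0.083% TATGACTAA, 3.14% TGATGNAA, 42.6% GGGCGG and 32.0% CCAAT. SRM was the only 1 of the 4 with CACGTG, which began 199 bases before the start, and it held 6 matches to GGGCGG and 2 to CCAAT. OAZ2 was the only 1 of the 4 with TGACTCA, which began 241 bases before the start, and it held 1 match to GGGCGG. SMS held 1 match to GGGCGG and 1 to CCAAT. SAT1 held 2 matches to CCAAT, 79 and 13 bases before the start, and none to the other 6 motifs. A match, or the lack of one, describes the letters of this window only, and sequence further from the start was not searched.

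Spermidine synthase (SRM), spermine synthase (SMS) and S-adenosylmethionine decarboxylase (AMD1), which supplies the aminopropyl groups, carry out the later steps of synthesis. SRM read 13.38, 13.22 and 12.64 at 0 h, 24 h and 48 h of the CWR22Rv1 time course. In the DMKG experiment SRM read 11.81 with DMKG, 11.41 in starved cells and 12.28 in control medium. The starved 48 h arrays were below their own control in both experiments, by 0.74 and 0.87, and most of the time course difference came after 24 h. SRM fell by 0.80 in CWR22Rv1 cells (SE 0.17, 1.74-fold lower, adjusted p = 0.0331), and 95.1% of all genes had a higher value of this difference. This SE draws in part on the PC3 replicates, and SRM was not called with CWR22Rv1 cells fitted on their own. The call was lost when any 1 of the 8 arrays of PC3 cells, of the time course at 0 h and 48 h, or of the DMKG experiment without DMKG was left out (adjusted p = 0.0594 to 0.166), while the fall stayed between 0.74 and 0.87. In PC3 cells SRM read 12.76 and 12.60 when starved, against 13.03 and 13.01 in control medium. These PC3 groups did not overlap, and the difference of -0.34 (SE 0.17) did not pass (adjusted p = 0.215).

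SMS passed in PC3 cells and not in CWR22Rv1 cells. In PC3 cells it read 14.71 and 14.62 when starved, against 15.38 and 15.43 in control medium, with a gap between the groups well above the spread within each. SMS fell by 0.74 in PC3 cells (SE 0.19, 1.67-fold lower, adjusted p = 0.0262). The call was lost when any 1 of the 4 PC3 arrays was left out (adjusted p = 0.0885 to 0.130). In CWR22Rv1 cells SMS read 11.11, 11.01 and 10.92 at 0 h, 24 h and 48 h, and 11.96 with DMKG, 12.07 in starved cells and 12.71 in control medium. Starved values were below their control in both CWR22Rv1 experiments, by 0.20 and 0.64, and the mean difference of -0.42 (SE 0.19) did not pass (adjusted p = 0.254). The difference between the lines was tested for both synthases and did not pass for SRM (0.46, SE 0.24, adjusted p = 0.353) or for SMS (-0.32, SE 0.26, adjusted p = 0.553).

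AMD1 passed in neither line. PC3 cells read 12.67 and 12.93 when starved, against 12.86 and 12.86 in control medium, so that the groups overlapped. In CWR22Rv1 cells the values were 14.65, 14.50 and 14.44 over the time course, and 15.50, 15.56 and 15.58 with DMKG, starved and in control medium. The differences were -0.05 (SE 0.18, adjusted p = 0.885) in PC3 cells and -0.11 (SE 0.18, adjusted p = 0.820) in CWR22Rv1 cells.

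**Figure D2:**
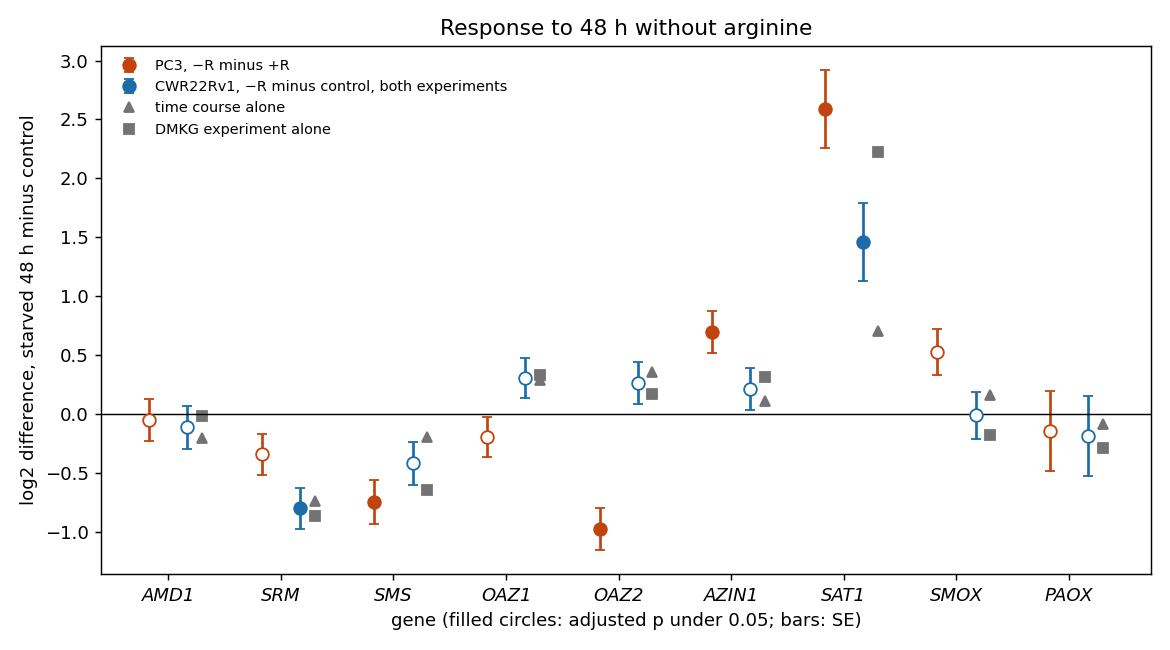
Log2 difference between starved cells at 48 h and their control for each polyamine gene in PC3 cells (red) and CWR22Rv1 cells (blue), with the SE as bars and filled circles for an adjusted p under 0.05. Grey triangles and squares give the CWR22Rv1 time course and the DMKG experiment alone, which lie at 0.70 and 2.22 for SAT1 and at -0.74 and -0.87 for SRM.

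Antizymes (OAZ1 and OAZ2) bind ornithine decarboxylase, inhibit it and target it for breakdown, and the antizyme inhibitor AZIN1 resembles the enzyme and binds antizyme in its place. OAZ2 was the only 1 of the 9 genes that passed the test of the difference in response between the lines. In PC3 cells OAZ2 read 10.02 and 10.22 when starved, against 11.16 and 11.04 in control medium, with no overlap. OAZ2 fell by 0.98 in PC3 cells (SE 0.18, 1.97-fold lower, adjusted p = 0.00758). Without control replicate 1 or without starved replicate 1 the adjusted p was 0.0555 and 0.0554, at a fall of 0.92 and 0.88.

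In CWR22Rv1 cells OAZ2 read 9.43, 9.55 and 9.78 at 0 h, 24 h and 48 h, so that each later array was higher. In the DMKG experiment it read 9.34 with DMKG, 9.34 in starved cells and 9.17 in control medium, and both starved values were equal to the last decimal given. The mean CWR22Rv1 difference at 48 h was 0.27 (SE 0.18, adjusted p = 0.491). The PC3 response minus the CWR22Rv1 response was -1.24 (SE 0.25, adjusted p = 0.0356), and 1 of 9 polyamine genes was called lower in this test, where 2.43% of all genes were. This call was lost when any 1 of the 8 arrays of the comparison was left out (adjusted p = 0.0890 to 0.123), with values of -1.34 to -1.14, and without the DMKG experiment (-1.34, adjusted p = 0.0968).

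AZIN1 read 15.30 and 15.49 in starved PC3 cells, against 14.65 and 14.74 in control medium. AZIN1 rose by 0.70 (SE 0.18, 1.62-fold, adjusted p = 0.0283) in PC3 cells, and the call was lost when any 1 of the 4 PC3 arrays was left out (adjusted p = 0.0728 to 0.153). In CWR22Rv1 cells its values were 12.76, 12.91 and 12.86 over the time course, and 13.90 with DMKG, 13.94 in starved cells and 13.63 in control medium. All 3 starved arrays without DMKG were above their own control, by 0.11 to 0.31, and the 48 h difference of 0.21 did not pass (SE 0.18, adjusted p = 0.602). The difference between the lines was 0.49 (SE 0.25, adjusted p = 0.333).

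OAZ1, the more widely expressed antizyme, had differences of opposite sign in the lines, neither of which passed. Starved PC3 cells read 14.52 and 14.51, against 14.77 and 14.65 in control medium. CWR22Rv1 cells read 15.68, 15.68 and 15.97 over the time course, and 15.35, 15.42 and 15.09 with DMKG, starved and in control medium. The PC3 groups did not overlap, at -0.20 (SE 0.17, adjusted p = 0.479), and the CWR22Rv1 difference was 0.31 (SE 0.17, adjusted p = 0.381). The difference between the lines was -0.51 (SE 0.24, adjusted p = 0.295).

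Spermidine/spermine acetyltransferase (SAT1) starts polyamine breakdown by adding an acetyl group, which marks spermidine and spermine for export or oxidation. In PC3 cells SAT1 read 12.85 and 12.87 when starved, against 10.48 and 10.06 in control medium. The starved values were nearly equal, the control values lay 0.42 apart, and the groups were separated by more than 2 log2 units. SAT1 rose by 2.59 (SE 0.33, 6.02-fold, adjusted p = 0.00164), and 0.345% of all genes had a higher value of this difference. With any 1 of the 4 PC3 arrays left out the difference was 2.38 to 2.80. Leaving out a CWR22Rv1 array cannot change it.

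In CWR22Rv1 cells SAT1 read 7.62, 8.13 and 8.33 at 0 h, 24 h and 48 h, with the larger step in the first 24 h. In the DMKG experiment it read 9.94 with DMKG, 9.48 in starved cells and 7.25 in control medium. SAT1 was thus above its control on each starved array, but by 0.70 at 48 h of the time course (1.63-fold) and by 2.22 in the DMKG experiment (4.67-fold). The mean difference was 1.46 (SE 0.33, 2.76-fold, adjusted p = 0.0387), and 0.82% of all genes had a higher value. This SE, too, draws in part on the PC3 replicates, and SAT1 was not called with CWR22Rv1 cells fitted on their own. Without either the starved or the control array of the DMKG experiment, or without that experiment, the difference was 0.70 (adjusted p = 0.243). Without either array of the time course it was 2.22 (adjusted p = 0.0205), and without any 1 PC3 array it was 1.46 (adjusted p = 0.0589 to 0.0686). The control array of the DMKG experiment, the one with KLK2, KLK3 and TMPRSS2 above their background, lay at 7.25, near the 95th percentile of its negative controls at 7.07. The PC3 response minus the CWR22Rv1 response was 1.13 (SE 0.47) and did not pass (adjusted p = 0.232).

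Spermine oxidase (SMOX) turns spermine back to spermidine, and polyamine oxidase (PAOX) oxidises the acetylated forms. In PC3 cells SMOX read 9.06 and 9.07 when starved, against 8.72 and 8.36 in control medium. These groups did not overlap, and the difference of 0.53 (SE 0.20, 1.44-fold) did not pass (adjusted p = 0.105). In CWR22Rv1 cells SMOX lay between 4.67 and 5.89, below the 95th percentile of the negative controls on every array, and its values with DMKG and in control medium were exactly equal. PAOX lay between 4.46 and 5.51 on PC3 arrays and between 4.96 and 5.91 on CWR22Rv1 arrays, below that percentile on every array, and its starved and control PC3 values overlapped.

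**Figure D3:**
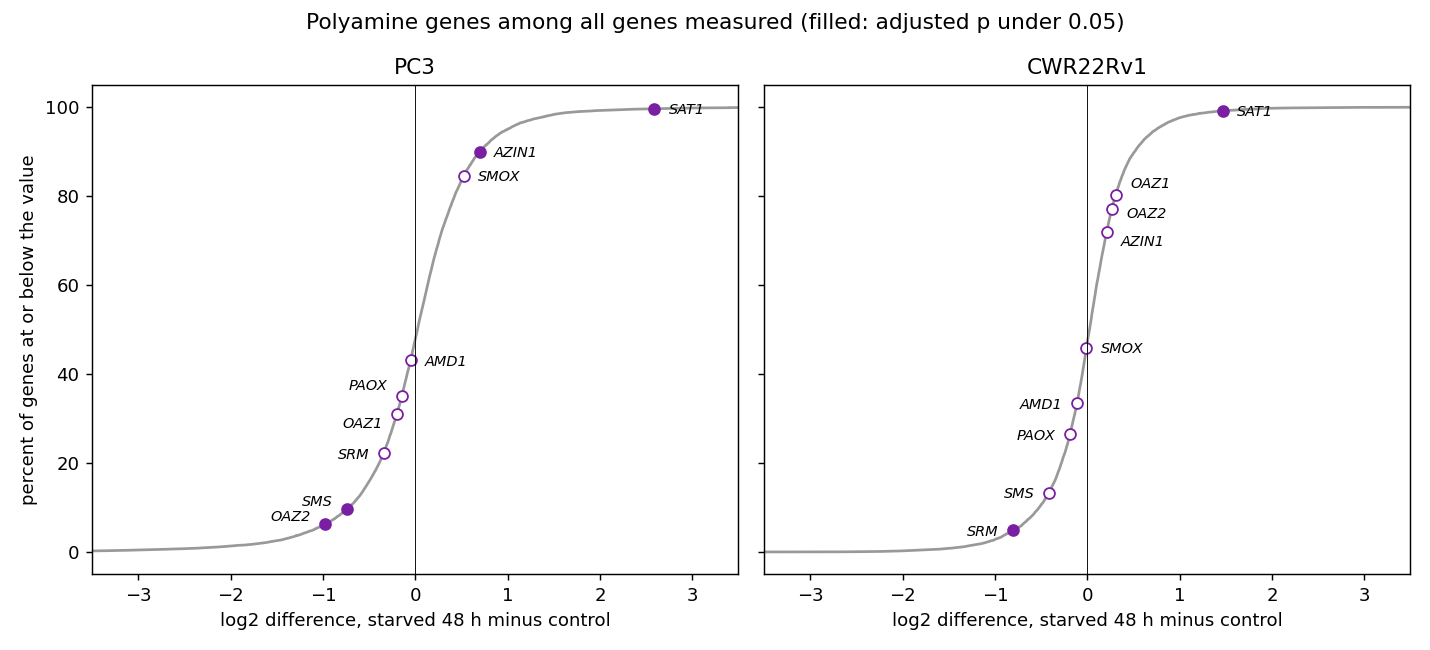
Cumulative curves of the log2 difference between starved cells at 48 h and control over 17687 genes in PC3 cells (left) and CWR22Rv1 cells (right), with the 9 polyamine genes marked at their own difference and filled where the adjusted p is under 0.05. SAT1 lies at the upper end of both curves, at 2.59 and 1.46, and OAZ2 changes sides between the panels, at -0.98 in PC3 cells and 0.27 in CWR22Rv1 cells.

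Over the 9 genes, starved and control PC3 arrays did not overlap for 7, with 3 higher and 4 lower when starved. This separation was common on these arrays, and 59.9% of all genes had it. The 48 h difference had the same sign in both CWR22Rv1 experiments for 8 of 9 genes, with SMOX as the exception, where 65.1% of the 13860 genes without an exact 0 in either experiment had it. SMOX, and PAOX among the 8, lay below the 95th percentile of the negative controls on all 6 CWR22Rv1 arrays, so their signs carry little weight.

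At 24 h of the time course none of the 9 genes was called, and the background was 0% of all genes. At an unadjusted p under 0.05, 0 of the 9 and 2231 of all genes passed in limma, and the trend and robust variant of limma called 227 genes higher and 212 lower, none of them a polyamine gene. The comparison had 1 array on each side and took its spread from the PC3 arrays. SAT1 had the largest difference, at 0.51 (1.43-fold), and 10.9% of all genes were higher. SMOX followed at 0.25 and PAOX at 0.23, both below the 95th percentile of the negative controls on these arrays. SRM stood at -0.16, against -0.74 at 48 h.

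DMKG added to arginine-free medium gave small differences against starved cells. None of the 9 genes was called, with a background of 0% of all genes, and at an unadjusted p under 0.05 it was 0 of the 9 and 426 of all genes, again with 1 array on each side. The trend and robust variant of limma called 0 genes here. SAT1 read 9.94 with DMKG, against 9.48 in starved cells without it. This difference of 0.46 ran the same way as that of starvation, with which it shares the starved array, and 3.57% of all genes had a higher value. SRM, at 11.81 with DMKG and 11.41 without, stood 0.40 higher, and 4.83% of all genes had a higher value. This ran against the direction of starvation, with which it shares the starved array as well. An error in that array alone would push both differences to opposite signs, so the opposite sign is not read as an effect of DMKG. SRM with DMKG was still below the control array, by 0.46. For the other 7 genes the DMKG difference lay between -0.23 and 0.18, and 26.3% of all genes had a difference of exactly 0, OAZ2 among them.

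Across the 10 arrays, after the mean of each experiment was subtracted, SAT1 and SMS ran opposite to each other (Pearson r = -0.996), and SAT1 and AZIN1 ran together (r = 0.908). For SAT1 and OAZ1 it was r = 0.045. Over all genes, those with the values most like SAT1 were ZNF225 (r = 0.994), MSRA (r = 0.994) and ZNF44 (r = 0.992). MSRA repairs oxidised methionine in proteins, and ZNF225 and ZNF44 encode zinc finger proteins. ZNF225 lay above the 95th percentile of the negative controls on 0 of 10 arrays and MSRA on 1 of 10, so that both patterns lie largely at background, while ZNF44 lay above it on all 10. These values are a description over arrays that share experiments and, for the most part, the same contrast of medium.

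Levels differed between the lines before starvation. After quantile normalization over all arrays, control PC3 cells stood above control CWR22Rv1 cells by 3.19 for SMS, 2.04 for SAT1, 1.01 for OAZ2 and 0.96 for AZIN1. The difference of PC3 minus CWR22Rv1 cells was -2.78 for AMD1 and -0.95 for OAZ1, and the values of SRM overlapped. No difference is given for SMOX, which was above background in PC3 cells only, or for PAOX, which was above it in neither line. For AMD1 the 2 PC3 control values were 12.44 and 12.48, against 14.81 and 15.66 in CWR22Rv1 cells. For SAT1 they were 10.00 and 9.55, against 7.80 and 7.67. The gap between the CWR22Rv1 experiments reached 1.56 for SMS, and the line cannot be told apart here from the experiment in which it was run.

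The genes that feed and surround this route were read from 6 lists of 40 measured genes. Of 9 genes of arginine and ornithine supply, 2 rose and 2 fell in PC3 cells, where 9.59% and 10.0% of all genes did. In CWR22Rv1 cells 2 rose and 1 fell, where 3.20% and 3.74% of all genes did. With any 1 of the 4 PC3 arrays left out the PC3 counts were 2 higher and 0 lower, and without either the starved or the control array of the DMKG experiment 0 were called in CWR22Rv1 cells. Argininosuccinate synthase (ASS1), which with ASL makes arginine from citrulline, read 9.02 and 9.37 in starved PC3 cells, against 7.23 and 6.56 in control medium. Both PC3 control values lay below the 95th percentile of the negative controls of their arrays, and with that percentile in their place ASS1 was at least 2.56-fold higher in starved cells (adjusted p = 0.000814 in limma on the measured values). In CWR22Rv1 cells ASS1 was called higher as well (adjusted p = 0.0247), at 8.38 and 7.02 on the starved 48 h arrays, against 7.10 and 5.73 on their control arrays, of which 1 of 2 lay above that percentile. The transporter SLC7A1, which imports arginine, ornithine and lysine, rose by 1.98 in PC3 cells (SE 0.31, adjusted p = 0.00394). In CWR22Rv1 cells SLC7A1 rose by a mean of 1.28 (SE 0.31, adjusted p = 0.0484). Its 48 h difference was 0.567 in the time course and 1.999 in the DMKG experiment, so that this mean came mostly from the latter. Ornithine aminotransferase (OAT), which draws ornithine off towards glutamate and proline, fell by 1.02 in PC3 cells (SE 0.21, adjusted p = 0.0117) and stood at -0.63 in CWR22Rv1 cells (adjusted p = 0.124). AGMAT, named for agmatine hydrolysis to putrescine, was called lower in CWR22Rv1 cells, at values below the 95th percentile of the negative controls on all 10 arrays. ASL, chosen for mention after its values were seen, was called lower in PC3 cells (adjusted p = 0.0423), at 7.51 and 7.09 in starved cells, against 8.24 and 7.93 in control medium. Both starved values of ASL lay below the 95th percentile of the negative controls, and no fold is given. The arginases ARG1 and ARG2, chosen in the same way, were called in neither line.

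Of 6 transport genes, 2 rose in PC3 cells, where 9.59% of all genes did, and 1 fell in CWR22Rv1 cells, where 3.74% did. Between the lines 2 were called higher, ATP13A3 and SLC12A8, where 349 of the 17687 genes were. With any 1 of the 4 PC3 arrays left out, 0 were called higher in PC3 cells and 0 were called in CWR22Rv1 cells, and without the starved or the control array of the DMKG experiment 0 were called in CWR22Rv1 cells. SLC3A2, the heavy chain of several amino acid transporters that has also been tied to polyamine export, rose by 2.16 in PC3 cells (SE 0.46, adjusted p = 0.0136). Its CWR22Rv1 values were 16.46, 16.62 and 16.61 over the time course, and 15.67 with DMKG, 15.62 in starved cells and 13.05 in control medium, so that the mean of 1.36 (adjusted p = 0.127) came mostly from the DMKG experiment, as that of SAT1 did. ATP13A3, a P-type ATPase of polyamine uptake, rose by 0.79 in PC3 cells (SE 0.19, adjusted p = 0.0247) and stood at -0.64 in CWR22Rv1 cells (adjusted p = 0.0950). The responses of the lines differed by 1.43 for ATP13A3 (adjusted p = 0.0286), 1 of 2 transport genes called in this test, and the count was 0 without any 1 PC3 array and 0 with the PC3 replicate number as a block. ATP13A2, a lysosomal polyamine exporter, stood at -0.51 in PC3 cells and at -0.59 in CWR22Rv1 cells and passed in neither, with 3 of its 4 PC3 values above background. SLC12A8 was called lower in CWR22Rv1 cells (adjusted p = 0.0341), at 8.14 and 6.29 on the starved 48 h arrays, against 8.78 and 7.66 on their control arrays. The starved value of 6.29, in the DMKG experiment, lay below the 95th percentile of the negative controls. Its PC3 values lay below that percentile on all 4 arrays. The call of SLC12A8 between the lines (1.45, adjusted p = 0.0418 in limma) thus rests on PC3 values that cannot be told from background.

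Of 5 regulators of ODC1 and SAT1, 4 rose in PC3 cells, where 9.59% of all genes did, and 1 in CWR22Rv1 cells, where 3.20% did. With any 1 of the 8 arrays of the 48 h comparisons left out, 3 to 4 were called in PC3 cells and 0 in CWR22Rv1 cells, and 0 to 1 between the lines, against 2 with all arrays. MYC, which binds E-boxes with MAX and is known to activate ODC1, read 14.72 and 14.75 in starved PC3 cells, against 13.04 and 13.04 in control medium, and rose by 1.70 (SE 0.22, adjusted p = 0.00164). In CWR22Rv1 cells MYC read 14.13, 13.93 and 13.93 over the time course, and 12.29 with DMKG, 11.79 in starved cells and 12.78 in control medium, with a mean difference of -0.59 (adjusted p = 0.161). The difference between the lines was 2.29 for MYC (adjusted p = 0.00824), in a test that called 349 of the 17687 genes higher. MXI1, which competes with MYC for MAX, rose by 2.21 in PC3 cells (SE 0.21, adjusted p = 0.000442), stood at 0.74 in CWR22Rv1 cells (adjusted p = 0.0783), and differed between the lines by 1.47 (adjusted p = 0.0337). NFE2L2, which activates genes of the antioxidant response and is known to act on SAT1, rose by 1.38 in PC3 cells (SE 0.18, adjusted p = 0.00164). MAX, chosen for mention after its values were seen, rose by 0.81 in PC3 cells (SE 0.18, adjusted p = 0.0184). NQO1, a quinone reductase known to shield ornithine decarboxylase from breakdown, rose by 0.83 in CWR22Rv1 cells (SE 0.18, adjusted p = 0.0370).

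Of 10 genes that supply S-adenosylmethionine or recycle the methylthioadenosine left by both synthases, none rose in either line. In PC3 cells 1 fell, where 10.0% of all genes did, and in CWR22Rv1 cells 2 fell, where 3.74% did. ADI1, an enzyme of this salvage route, fell by 1.52 in PC3 cells (SE 0.21, adjusted p = 0.00251) and by 0.89 in CWR22Rv1 cells (SE 0.21, adjusted p = 0.0461), and APIP, which acts before it, fell by 1.20 in CWR22Rv1 cells (SE 0.21, adjusted p = 0.0168). The count of 1 in PC3 cells stayed at 1 with each of those 8 arrays left out, and that of 2 in CWR22Rv1 cells was 0 to 2, with 0 where an array of the DMKG experiment was left out. MAT2A, which makes S-adenosylmethionine, stood at 0.36 in PC3 cells and -0.05 in CWR22Rv1 cells. MRI1, of the salvage route, lay below the 95th percentile of the negative controls on all 10 arrays. Of 4 genes for eIF5A and its hypusine modification, which uses spermidine, none was called in limma, and at an unadjusted p under 0.05 it was 1 higher in PC3 cells, and 1 higher and 1 lower in CWR22Rv1 cells. At that level 5767 of the 17687 genes passed in PC3 cells and 3617 in CWR22Rv1 cells. Deoxyhypusine synthase (DHPS) stood at 0.06 in PC3 cells and 0.61 in CWR22Rv1 cells, and EIF5A at -0.37 in PC3 cells and -0.29 in CWR22Rv1 cells. EIF5A2 stood at 0.52 in PC3 cells, and only 1 of its 6 CWR22Rv1 values lay above the 95th percentile of the negative controls. Of 6 other genes of breakdown and antizyme, ALDH9A1 fell by 0.92 in PC3 cells (SE 0.18, adjusted p = 0.00889), a call lost without control replicate 1 or starved replicate 2 of PC3 cells, and none was called in CWR22Rv1 cells, where 1 was lower at an unadjusted p under 0.05. SAT2, SATL1 and OAZ3 of this list were called in neither line. Without the DMKG experiment no gene of these 6 lists was called in CWR22Rv1 cells, where 8 of all genes were.

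**Figure D4:**
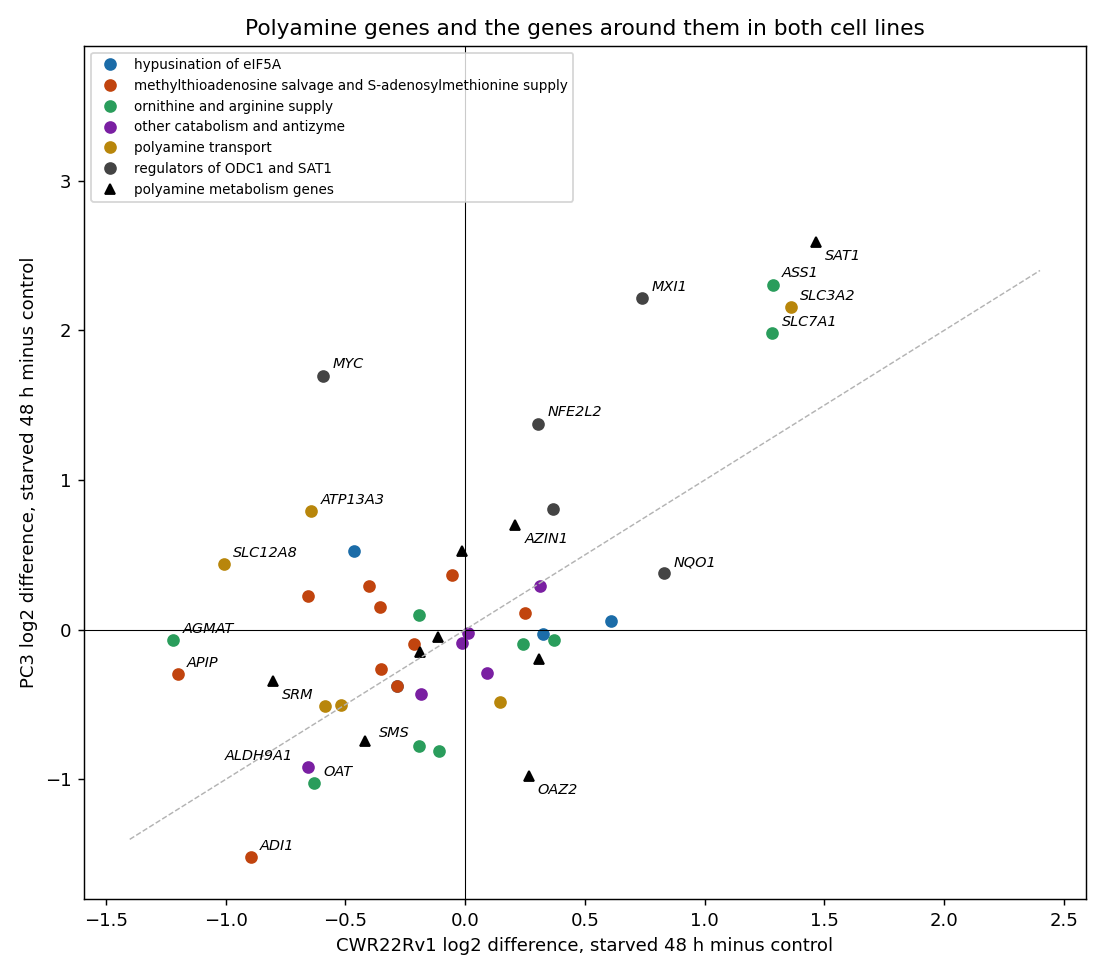
Log2 difference between starved cells at 48 h and control in CWR22Rv1 cells (horizontal) and PC3 cells (vertical) for the 9 polyamine genes (triangles) and 40 genes of 6 surrounding lists (circles), with the line of equal differences dashed. SAT1 lies near ASS1, SLC7A1 and SLC3A2 at the upper right, and MYC and ATP13A3 lie at the upper left, above 0 in PC3 cells and below 0 in CWR22Rv1 cells.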

How the data were processed

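The deposited values are log2 signals, which the authors made with the Transcriptome Analysis Console. The sources used here do not give the version, the background correction or the normalization. Of 24351 probe sets, 17709 had 1 symbol in the array annotation. For 20 genes with several probe sets, the one with the highest mean was kept, which leaves 17687 genes. No column of values was left unused.

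Differences were fitted in limma 3.58.1 (R 4.3.3). The model held intercepts for 3 sets (CWR22Rv1 time course, CWR22Rv1 DMKG experiment, PC3) and effects of 24 h, of 48 h in CWR22Rv1 cells, of DMKG and of starvation in PC3 cells, with 3 residual and 5.09 prior degrees of freedom. Both lines share the residual spread of a gene, which pools the PC3 replicates with the CWR22Rv1 experiments. The 24 h and DMKG effects came from a fit with a separate 48 h effect in each CWR22Rv1 experiment (2 and 3.82), and their lone arrays were assumed to vary like the PC3 arrays. The threshold was an adjusted p of 0.05 (Benjamini-Hochberg, every gene included). Probe sets are compared between arrays, never with each other. Levels between lines used quantile normalization. Precision is limited by the number of arrays.

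All 10 polyamine genes are named. Of each of the 6 lists, up to 3 genes with the smallest unadjusted p in PC3 cells and up to 2 in CWR22Rv1 cells are named. ASL, ARG1, ARG2 and MAX were named after their values were seen. The search for genes like ODC1 could not be run. Counts over a list cover its genes with a value under their symbol. The genes, lists and tests were chosen with earlier results of these data known. Gene positions and promoter windows are from RefSeq (GRCh38.p14), with windows for 7 of the 10 genes searched. Alternatives were 2 other scalings, the lowest 30% of genes left out, the trend and robust variant, the mean over probe sets, the PC3 replicate block, each line or experiment alone, a 2-fold minimum, the methods' t-test, and each of the 8 arrays of the 48 h comparisons left out. Leaving out the DMKG experiment was chosen after seeing the data. The fit was tested on simulated data. Figures were drawn in matplotlib 3.10.9 (Python 3.11.15).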

Additional observations from a re-analysis of the deposited data

Results flagged for a closer look

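The response of OAZ2 to 48 h without arginine differed between the cell lines by a test of the difference itself, with a PC3 response minus CWR22Rv1 response of -1.24 (SE 0.25, limma, adjusted p = 0.0356). Both starved PC3 arrays were below both control arrays, and starved CWR22Rv1 cells were above their control in both experiments. The 2 starved arrays of the CWR22Rv1 DMKG experiment, with and without DMKG, held the same value of 9.34 for OAZ2. The array with DMKG has its own term in the fit, so that its value does not enter this difference. What made the values equal was not tested.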

How the results depend on the processing

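In all, 684 values of single polyamine genes were computed again under the alternatives. Of these, 612 kept their direction and their side of the threshold, 52 lost a call and 20 changed sign, none of the last being a called difference. The 612 do not measure stability, since some alternatives could not move a difference. An array of 1 line left out did not touch the differences within the other line. Leaving out the starved or the control array of a CWR22Rv1 experiment gave the same 48 h difference. The mean over probe sets could not change genes read by 1 probe set. The count of called polyamine genes in PC3 cells, 4, was 0 by the methods' t-test after Benjamini-Hochberg adjustment (3 genes higher and 7 lower over all genes), 1 with a 2-fold minimum, and 1 to 4 with each of the 8 arrays of the 48 h comparisons left out in turn. In CWR22Rv1 cells the count of 2 was 0 with the line fitted on its own, where no gene at all was called and 2881 had an unadjusted p under 0.05, 0 by the methods' t-test, adjusted or not, 1 with a 2-fold minimum, 0 without the DMKG experiment, and 0 to 1 with each array left out. The single call between the lines became 0 without the DMKG experiment and 0 with any 1 of those 8 arrays left out. With fewer arrays there are fewer degrees of freedom, and the cause of the other losses was not tested.

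With the replicate number of the PC3 arrays as a block, the counts were 4 in PC3 cells, 0 in CWR22Rv1 cells and 0 between the lines. The numbers do not pair the arrays, since the deviations of the same number correlated at -0.0269 across genes. Over all genes the block gave 311 higher and 397 lower calls in CWR22Rv1 cells, against 566 and 662 without it, and 208 and 292 between the lines, against 349 and 429. With the trend and robust variant the difference between the lines was called for 626 genes higher and 661 lower, and the CWR22Rv1 response for 913 and 997.

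Signs changed for small differences. In PC3 cells AMD1 was 0.00490 with arrays centred on their median and -0.18 to 0.078 with an array left out, and PAOX -0.67 to 0.38. In CWR22Rv1 cells SMOX was 0.0116 with centred arrays, 0.16 without the DMKG experiment and -0.18 to 0.16 with an array left out. Between the lines AMD1 was -0.069 to 0.19 and PAOX -0.48 to 0.57 with an array left out, and PAOX -0.0618 without the DMKG experiment. At 24 h OAZ1 was 0.077 after quantile normalization, 0.029 with centred arrays and 0.0060 with 1 shared 48 h effect, and under the last the DMKG difference of AZIN1 was 0.0163.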
